A study of Drosophila melanogaster with 4 samples.

Results

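The X chromosome carried 886 of the 5135 regions in the combined list of ZW5 binding, the list the authors deposited for the replicates together. The regions were chosen by 1 rule, that the list places them on X, and no measured value entered it. The 3951 regions on the large autosomal arms 2L, 2R, 3L and 3R served as background. The assay was ChIP-seq, in which an antibody against ZW5 pulls down crosslinked chromatin and the attached DNA is sequenced, in Drosophila melanogaster embryos of the wild-type laboratory strain Oregon-R, aged 14 to 16 h. The groups were 2 ZW5 ChIP libraries and 2 input libraries from the same strain, stage and genotype. The embryos came from population cages and were crosslinked with formaldehyde whole, so each library mixes all cell types, and no label gives the sex of the embryos.

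ZW5 takes its name from the zeste-white interval of X. The protein has zinc fingers and binds the scs element, a boundary flanking a heat shock locus on 3R, where it is known to keep an enhancer on one side from acting on a promoter on the other. Its own gene, also called deformed wings, lies on X. In flies X is present once in males and as a pair in females, and males raise transcription of their single copy by dosage compensation.

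The replicate 1 list placed 106 regions on X and the replicate 2 list 157. Each region has coordinates on FlyBase release 5 and a score from the authors' caller, whose scale the file headers do not state. Read depth is unknown, and intervals on counts, ratios and shares cover counting error only. Regions of 1 library are not replicates, and the labels do not say that the libraries came from separate embryo collections, so p-values describe regions within these libraries. A score of at least 1 marks the strong regions, a boundary taken over from earlier work on these lists. A region counts as supported by a replicate when it overlaps a region of that replicate's list by 1 bp or more. No genome or annotation of release 5 was used here, so the genes and the sequence at these positions are not given.

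Only a small set of X regions stood out by score. Those of them held by both replicates all lay more than 2 Mb from either end of the chromosome. They were too few to tell this from even placement. Of the 886 regions, 21 (2.37%, 95% Wilson interval 1.56 to 3.60) reached a score of 1, against 4.56% on the autosomal arms. Of these 21, 10 (47.6%, interval 28.3 to 67.6) were overlapped by both replicates and 11 by neither, against 81.7% overlapped by both among the strong autosomal regions. The difference was -34.0 percentage points (95% Newcombe interval -54.0 to -13.1). On single autosomal arms the share overlapped by both ran from 69.2% on 2R to 88.7% on 3R. The 10 lay between 4.00 and 19.4 Mb from the telomere end, on a chromosome of 22.4 Mb. The strongest 5 of the 10 lay between 15.2 and 19.4 Mb, nearer the centromere.

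**Figure D1:**
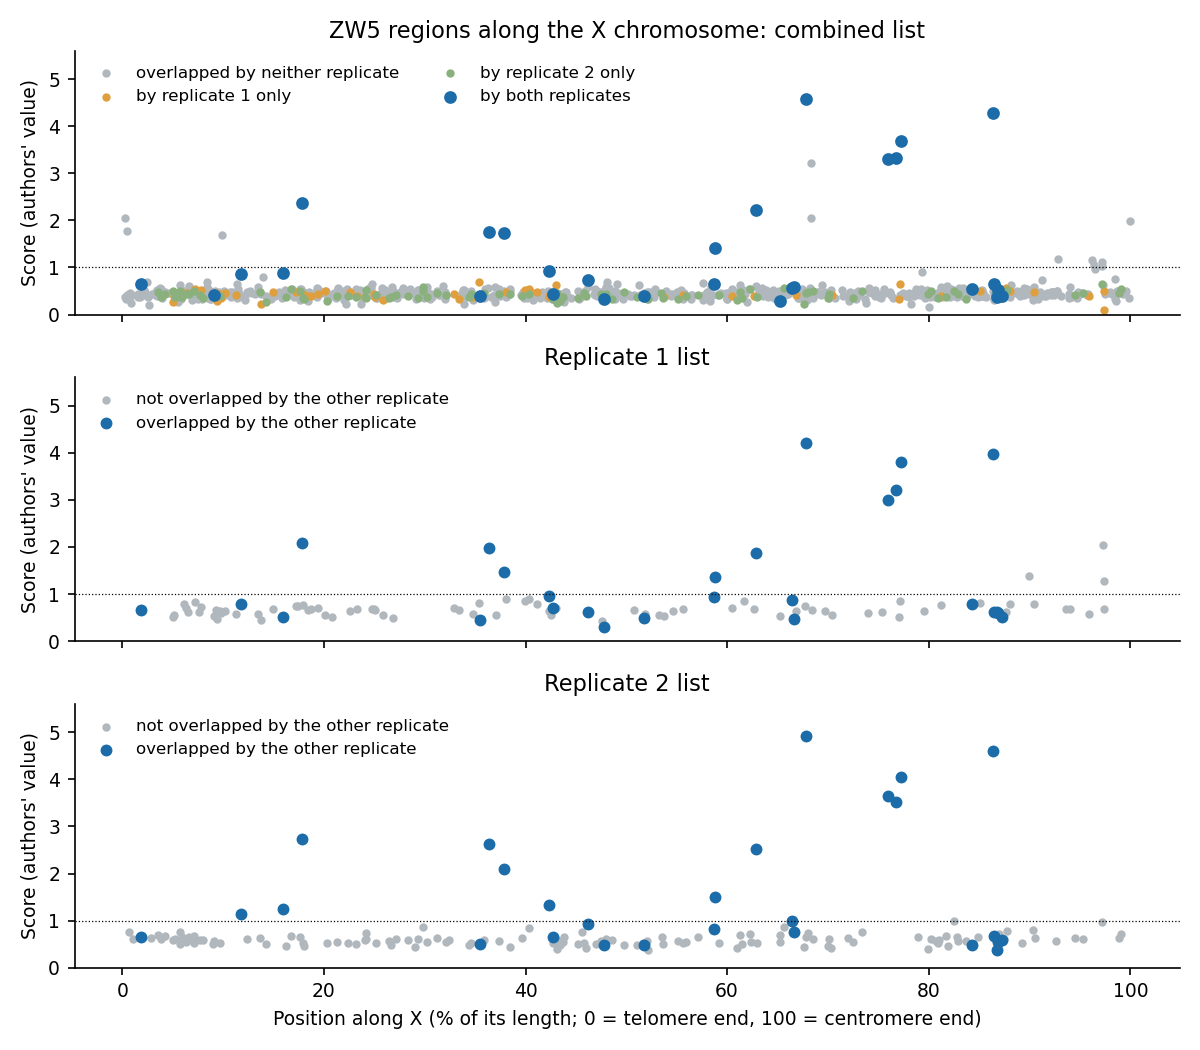
Each point is a region on X, placed by its centre in percent of the chromosome's length (telomere end at 0, centromere end at 100) and by its score, in the combined list (top), the replicate 1 list (middle) and the replicate 2 list (bottom); the dotted line marks a score of 1. The 10 strong regions overlapped by both replicates stand out at the same places in all 3 lists, while the 11 strong regions overlapped by neither appear in the top panel only, 8 of them within 2 Mb of an end.

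Among the 10, the highest score on X belonged to X 15216202 to 15218784, with 4.57 in the combined list, 4.22 in replicate 1 and 4.92 in replicate 2. It ranked 2 over the whole combined list and 6 in each replicate. The next was X 19372364 to 19375840, with scores of 4.28, 3.97 and 4.60 in the same order of lists. Both therefore belonged to the highest scores of every list and not of X alone.

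The next regions by score, 3 in all, lay close together. X 17314910 to 17318434 scored 3.68 in the combined list, 3.81 in replicate 1 and 4.04 in replicate 2. X 17198600 to 17201146 scored 3.33, 3.21 and 3.52, and X 17041148 to 17044284 scored 3.30, 2.99 and 3.65. Their neighbouring centres were 117 and 157 kb apart, the closest of any strong supported regions on X.

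The remaining 5 were weaker and more scattered. X 3996940 to 4001036 scored 2.37 in the combined list, 2.08 in replicate 1 and 2.74 in replicate 2, and X 14101840 to 14104248 scored 2.21, 1.88 and 2.52. X 8144590 to 8149010 scored 1.76, 1.99 and 2.62, and X 8485028 to 8487850 scored 1.73, 1.46 and 2.09. X 13189590 to 13191900 was the lowest, with 1.41, 1.37 and 1.499. The centre of X 3996940 to 4001036 was 4.15 Mb from its next strong supported neighbour, and 4.70 Mb separated X 8485028 to 8487850 from X 13189590 to 13191900.

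The replicates placed the 10 regions at nearly the same base pairs. The centres of the replicate 1 and replicate 2 regions were a median of 25 bp apart, with a range of 2.5 to 479.5 bp. Widths ran from 2227 to 3798 bp in replicate 1 and from 2257 to 4068 bp in replicate 2. Scores were higher in replicate 2 for all 10, although the 2 lists may not share a scale. As a description over these 10 regions, which both callings had to include, Spearman's rho between the replicates' scores was 0.988 and Pearson's r was 0.982. Other regions lay at varied distances from these 10. The distance to the nearest other combined-list region was 3.10 kb at the strongest region and 56.7 kb at X 17198600 to 17201146, with a median of 13.5 kb. Within 50 kb lay 10 other regions around X 3996940 to 4001036 and 0 around X 17198600 to 17201146.

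The 11 strong regions that neither replicate held were narrow and lay mostly at the chromosome's ends. They were 1001 to 1287 bp wide, while the narrowest region of either replicate list measured 1301 bp, so none was as wide as any replicate region. The highest was X 15310262 to 15311262 with a score of 3.23, next to X 15308730 to 15309736 with 2.06. The next highest were X 56868 to 58030 with 2.06, X 22404296 to 22405322 with 1.98 and X 103964 to 105220 with 1.77. Within 2 Mb of the centromere end lay 6 of the 11 and within 2 Mb of the telomere end 2, against 0 of the 10 supported regions at either end, where both ends together make up 17.8% of X. A count of 0 of 10 allows a share of up to 30.0%, so a lack of supported regions at the ends could not be detected. A weaker supported region had its centre 0.42 Mb from the telomere end. On the autosomal arms 33 strong regions were not held by both replicates, 32 of them by neither. Of the 33, 10 lay within 2 Mb of the centromere end and 1 within 2 Mb of the telomere end, against 5 and 13 of the 147 supported ones.

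Among strong regions, exact ties in score occurred only in those not held by both replicates, on X as on the autosomes. A score equal to 9 decimals to that of another combined-list region was found for 8 of the 11 unsupported regions and for 0 of the 10 supported ones. On the autosomal arms the counts were 26 of the 33 not held by both replicates and 0 of the 147 held by both. X 56868 to 58030 and X 15308730 to 15309736, at distant places, shared 1 score, and X 21608464 to 21609702 scored 1 less at the same precision. Over all regions, tied scores made up 51.2% on X and 50.2% on the autosomal arms, so ties alone do not mark the unsupported regions.

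**Figure D2:**
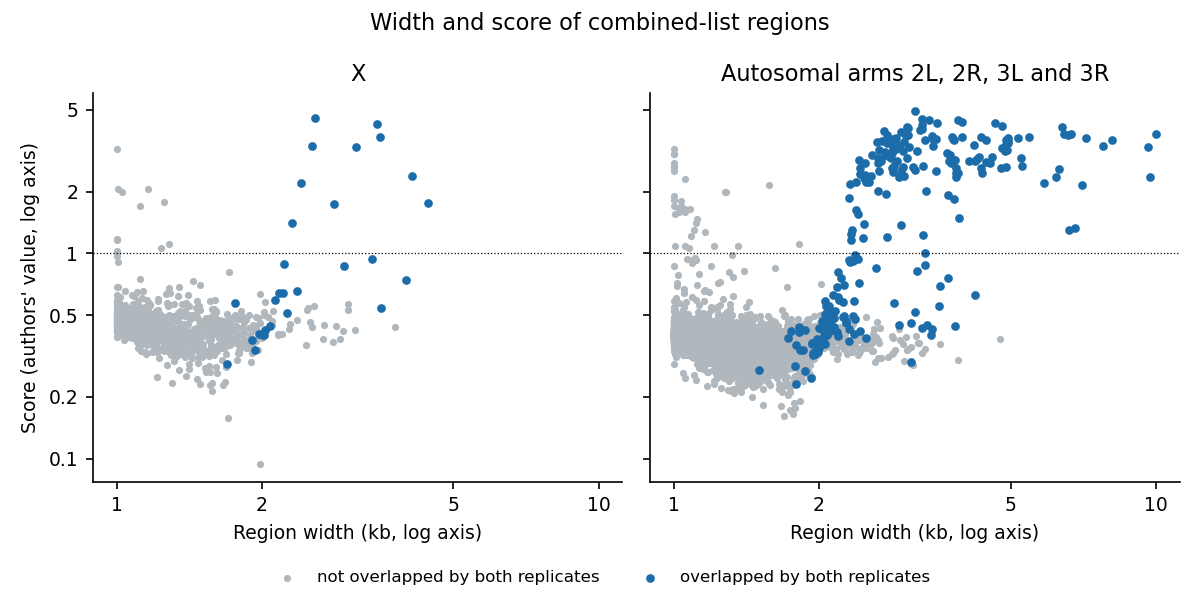
Each point is a combined-list region on X (left) or on 2L, 2R, 3L and 3R (right), by width in kb and score, both on log axes; the dotted line marks a score of 1. Strong supported regions are 2311 to 4421 bp wide on X, strong unsupported ones lie at the left edge near 1 kb, and no strong supported region of X reaches 5 kb.

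Supported and unsupported regions alike fell just short of the boundary of 1 in the combined list. Just inside it, the lowest supported region scored 1.41 and the lowest unsupported one 1.03. Just outside, X 9492850 to 9496234 scored 0.93, X 3564662 to 3566888 scored 0.89 and X 2629170 to 2632134 scored 0.87 in the combined list, all held by both replicates. Replicate 2 gave these 3 scores of 1.33, 1.24 and 1.14, and replicate 1 scores of 0.96, 0.51 and 0.78. They made up the difference between the 13 strong X regions of replicate 2 and the 10 that were strong in all 3 lists. Regions held by neither replicate lay in the same range of combined-list scores. X 21633006 to 21634006 scored 0.97, X 17794110 to 17795116 scored 0.91 and X 3120018 to 3121730 scored 0.81.

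Replicate 2 had 13 strong regions on X (8.28%), against 18.5% of its autosomal regions. Replicate 1 also had 13 (12.3%), against 29.5% of its autosomal regions, and the 3 outside the 10 were not found by replicate 2. They lay 0.587 to 2.25 Mb from the centromere end. X 21803318 to 21805307 scored 2.04, X 20168023 to 20169772 scored 1.38 and X 21833802 to 21836065 scored 1.28 in replicate 1. The first 2 overlapped no combined-list region. The last overlapped X 21834084 to 21836066, which at 0.09 had the lowest score of the combined list on X. On the autosomal arms the other replicate overlapped 98.1% of the strong regions of replicate 1 and 98.8% of those of replicate 2, and on X 10 of 13 and 13 of 13. Over all scores, 27 of the 106 replicate 1 regions on X (25.5%) met a replicate 2 region, against 49.2% on the autosomal arms, and 27 of the 157 replicate 2 regions (17.2%) met a replicate 1 region, against 28.2%.

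Support by both replicates reached 29 regions of X (3.27%, Wilson interval 2.29 to 4.66), against 6.23% on the autosomal arms. The difference was -2.95 points (interval -4.22 to -1.39). Beside the 10 strong regions these were 19 weaker ones, with scores of 0.29 to 0.93 in the combined list. The strong made up 34.5% of the 29 (interval 19.9 to 52.7), against 59.8% of the 246 on the autosomal arms, a difference of -25.3 points (interval -41.0 to -6.06). The median score of supported regions was accordingly 0.66 on X and 2.22 on the autosomal arms, and their median width 2311 bp on X and 2824 bp on the autosomal arms. Replicate centres of the 19 weaker regions were a median of 94.5 bp apart, with a highest distance of 1645 bp. Scores of the replicates were correlated less closely over these 19 than over the 10 strong regions. Spearman's rho was 0.396 over the 19 and 0.830 over all 29, and Pearson's r was 0.511 and 0.983. The 19 also spanned a narrower range of replicate 1 scores, 0.31 to 0.96, against 1.37 to 4.22 over the 10. The part of this range in the correlations was not tested.

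Supported regions formed a group near 19.4 Mb and left a long stretch empty. From X 19372364 to 19578928, a span of 207 kb, 5 of the 29 followed each other, namely the second strongest region of X and 4 weaker ones scoring 0.38 to 0.64. The 2 closest were 11.2 kb apart. The longest stretch of X without a supported region ran from 4001037 to 7953849, or 3.95 Mb, against 2.17 to 3.40 Mb on the 4 autosomal arms. Fewer supported regions leave longer stretches by number alone. Of neighbouring supported regions, 4 of 28 pairs on X (14.3%) had centres within 50 kb, against 17.4% on 3L and 43.5% on 2L as the lowest and highest of the autosomal arms.

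The density of all regions on X did not differ detectably from that of the autosomes, while strong and supported regions were sparser on X. X held 39.5 combined-list regions per Mb, against 40.9 on the autosomal arms, a ratio of 0.966 (exact 95% interval 0.897 to 1.04, adjusted exact binomial p = 0.368 over 7 ratios). Strong regions came to 0.937 per Mb on X against 1.86, a ratio of 0.503 (interval 0.304 to 0.792, adjusted exact binomial p = 0.00214). Supported regions came to 1.29 per Mb against 2.55, a ratio of 0.508 (interval 0.333 to 0.748, adjusted exact binomial p = 0.00062). Each replicate list gave a lower ratio for its own strong regions, 0.364 (interval 0.189 to 0.641, adjusted exact binomial p = 0.000335) in replicate 1 and 0.342 (interval 0.178 to 0.60, adjusted exact binomial p = 0.000199) in replicate 2. Over all its regions replicate 2 gave 0.764 (interval 0.641 to 0.907, adjusted exact binomial p = 0.00214) and replicate 1 gave 0.875 (interval 0.703 to 1.08, adjusted exact binomial p = 0.258). Autosomal arms differed among themselves. Replicate 2 had 7.00 regions per Mb on X, against 7.82 on 3L and 10.9 on 3R as the lowest and highest arms. Replicate 1 had 4.73 on X, against 4.07 on 3L and 6.10 on 2R as the lowest and highest. Counting only strong regions that both replicates held, a choice made after the values were seen, lowered the combined ratio to 0.293 (interval 0.138 to 0.554, exact binomial p = 1.4e-05). Overlap with replicate 1 alone in place of both gave a ratio of 0.803 that did not pass the test (exact binomial p = 0.0694). All these intervals and p-values treat regions as placed independently of each other. In the combined list, counts per window of 1 Mb had a variance of 3.51 times their mean on X and 3.14 times on the autosomal arms. The intervals may therefore be too narrow and the p-values too small.

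Against this scarcity of strong regions, the ordinary regions of X scored higher than those of every autosomal arm. The median score of all combined-list regions was 0.44 on X (quartiles 0.40 and 0.49) and between 0.37 and 0.38 on 2L, 2R, 3L and 3R. Among regions below 1 the median was 0.44 on X, against 0.37 on the autosomal arms, and 66.2% of those on X exceeded the autosomal upper quartile of 0.41. Both replicates showed the same order within their own lists. Below a score of 1, replicate 1 had a median of 0.65 on X and 0.52 on the autosomal arms, and replicate 2 had 0.58 on X and 0.50 on the autosomal arms. Of all pairs of 1 X region and 1 autosomal region below 1, the X region had the higher score in 76.5% in the combined list, 78.3% in replicate 1 and 73.2% in replicate 2. These are descriptions over regions and no test was made. X is a single chromosome here and in the density ratios, whose p-values cover counting error within these libraries only. The part of X copy number and read depth in the densities and scores of X was not tested.

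The higher scores were spread over the whole length of X. In each of its 22 full windows of 1 Mb the median score lay between 0.42 and 0.47. The 95 windows of the autosomal arms had medians of 0.33 to 0.43, and 17 of the 22 X windows were above all of them. Only 3 of the 95 autosomal windows reached the lowest X window. The low end of the scores lay higher as well, with a 5th percentile of 0.33 on X and 0.27 to 0.28 on the 4 autosomal arms, while the 95th percentile was 0.63 on X, within the range of 0.61 on 3R to 1.49 on 2L.

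**Figure D3:**
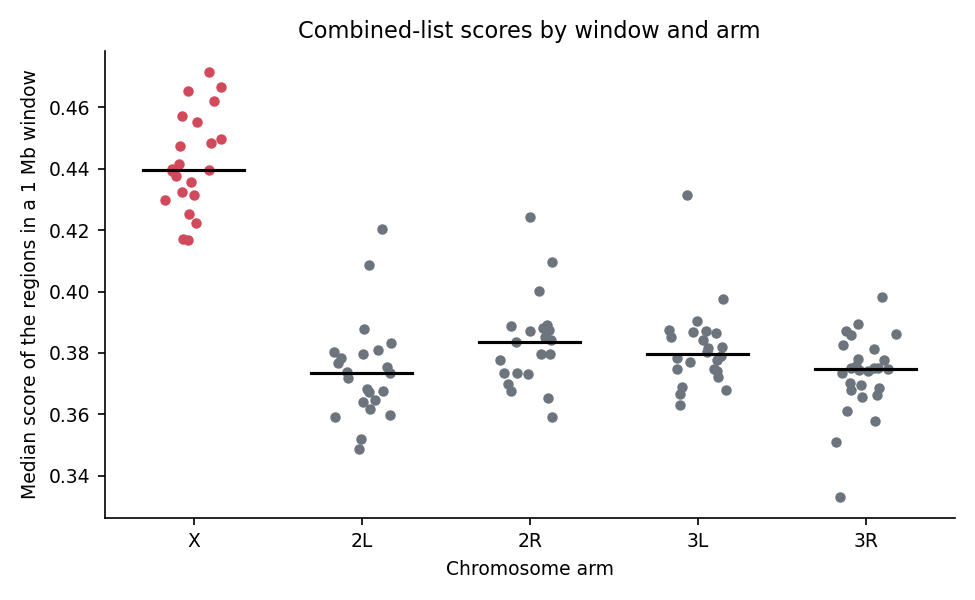
Each point is the median score of the combined-list regions in a full window of 1 Mb, for X and the 4 autosomal arms; black lines are the medians of the windows. The 22 windows of X lie between 0.42 and 0.47, and 17 of them lie above all 95 autosomal windows.

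Within bands of equal score, X regions between 0.4 and 1 and those of at least 2 were supported less often than autosomal ones. From 0.5 to 1 lay 166 regions of X (18.7% of X), against 108 autosomal ones (2.73%). Both replicates held 6.63% of these on X (interval 3.74 to 11.5) and 29.6% on the autosomal arms (interval 21.8 to 38.8), a difference of -23.0 points (Newcombe interval -32.6 to -13.8). From 0.4 to 0.5 the shares were 0.871% on X and 2.92% on the autosomal arms, a difference of -2.04 points (interval -3.35 to -0.449). From 1 to 2 they were 27.3% and 42.9%, with an interval of the difference from -38.6 to 16.8 points that includes 0. At 2 and above 7 of 10 on X and 129 of 138 on the autosomal arms were held by both, a difference of -23.5 points (interval -54.0 to -3.51).

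Widths differed within these bands, with a median of 1123 bp on X and 1282 bp on the autosomal arms at scores of 0.5 to 1. In bands of equal width, both replicates held 3.65% of X regions and 4.79% of autosomal ones from 1600 to 2000 bp (interval of the difference -4.03 to 3.68 points), and 41.4% and 41.2% from 2000 to 2500 bp (interval -17.4 to 19.5 points). At 2500 bp and wider the shares were 48.0% on X and 77.1% on the autosomal arms, a difference of -29.1 points (interval -47.8 to -9.49). The part of width in the differences within score bands was not tested.

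Since the median score was higher on X and the top of the scores was not, regions were also ranked within X and within the autosomal arms, an alternative added after the values were seen. The highest 2.5% of ranks began at a score of 0.97 on X and 2.66 on the autosomal arms. There 45.5% of X regions and 96.0% of autosomal ones were held by both replicates, a difference of -50.5 points (interval -69.2 to -29.8). On X these 22 regions were the 21 strong ones together with X 21633006 to 21634006, which neither replicate held. The autosomal ones all lay in the band of 2 and above, so this comparison largely restates the counts already given. In the next 2.5% the shares were 31.8% and 60.6% (interval of the difference -46.7 to -5.72 points). Among the lower 50% of ranks they were 1.58% and 1.42% (interval -0.861 to 1.86), so a difference was not detectable there.

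**Figure D4:**
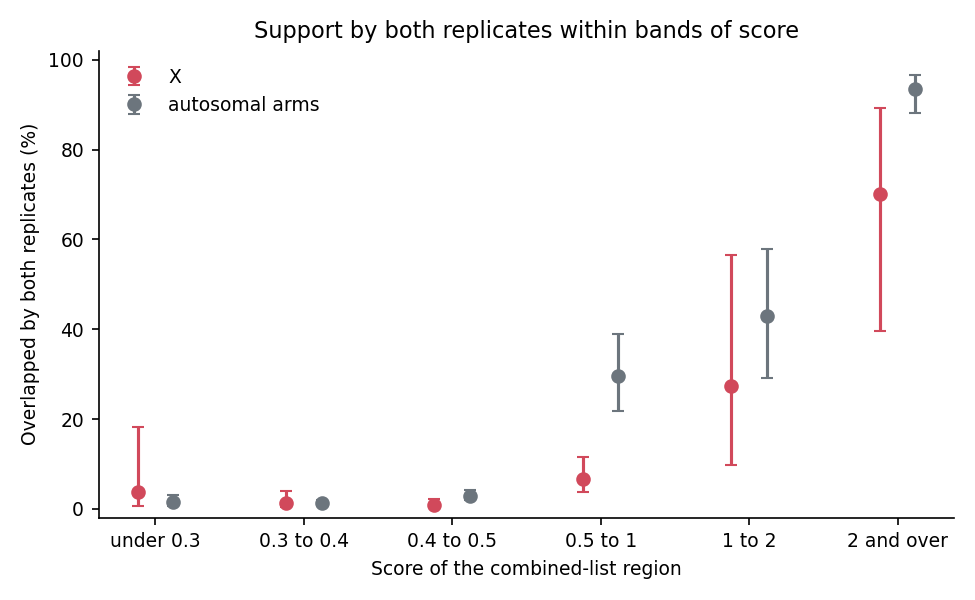
Share of combined-list regions overlapped by both replicates, in percent with 95% Wilson intervals, in 6 bands of score for X and for the autosomal arms. The shares are apart between 0.5 and 1, at 6.63% on X and 29.6% on the autosomal arms, and both rise to their highest at scores of 2 and over.

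Support by at least 1 replicate reached 188 regions of X (21.2%, Wilson interval 18.7 to 24.0), against 24.6% on the autosomal arms, a difference of -3.41 points (Newcombe interval -6.31 to -0.301). Single autosomal arms ran from 22.4% on 3L (interval 19.9 to 25.2) to 26.7% on 2L, so X lay close to 3L. Of the 188, replicate 2 alone held 103, replicate 1 alone 56 and both 29. Among regions below a score of 1 the difference was -1.30 points (interval -4.19 to 1.80), and among those of at least 1301 bp, which are fewer, it was -4.50 points (interval -9.72 to 0.90), and both intervals include 0. In the other direction, 84 of the 106 replicate 1 regions on X (79.2%) and 131 of the 157 of replicate 2 (83.4%) met a combined-list region, against 89.3% and 86.6% on the autosomal arms.

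Median widths on X were close to those of the autosomes, and the widest regions were autosomal. The median was 1235 bp on X and between 1249 and 1277 bp on the 4 autosomal arms, and the upper quartile 1552 bp on X, against 1535 to 1621 bp. Regions narrower than 1301 bp made up 55.6% on X and 53.1% on the autosomal arms, and both replicates held 0 of them on X (upper Wilson limit 0.773%) and 0 on the autosomal arms (upper limit 0.183%). The widest X regions were X 8144590 to 8149010 with 4421 bp, X 3996940 to 4001036 with 4097 bp and X 10366036 to 10370024 with 3989 bp, all held by both replicates. The widest autosomal region measured 9991 bp. Strong supported regions of at least 5 kb numbered 0 of 10 on X, which allows a share of up to 30.0%, and 20 of 147 (13.6%) on the autosomal arms, so a difference could not be detected with 10 regions. Together the X regions covered 1218 kb, or 5.43% of the chromosome, against 5.94% of the autosomal arms.

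Along X the combined-list regions were most crowded between 1 and 2 Mb and between 18 and 20 Mb. The fullest windows of 1 Mb were 1000001 to 2000000 with 75 regions, 19000001 to 20000000 with 60 and 18000001 to 19000000 with 52. The emptiest, tied at 29 regions, were 8000001 to 9000000, 11000001 to 12000000, 12000001 to 13000000 and 16000001 to 17000000. The fullest window of X exceeded those of the autosomal arms, which held 57 to 70, and its emptiest exceeded theirs of 14 to 28. The variance of the counts was 3.51 times their mean on X, within the 2.05 to 3.66 of the 4 autosomal arms.

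The 2 fullest windows differed in their strong and supported regions. The window with 75 regions held 0 of either, and the window with 60 held 5 supported regions, the most of any full window of X, among them the second strongest region of X. In the replicate lists the counts per window had a variance of 1.06 times the mean in replicate 1 (1 to 8 regions) and 0.966 times in replicate 2 (3 to 12 regions), against 0.849 to 2.41 times on the 4 autosomal arms in replicate 1 and 1.49 to 2.50 times in replicate 2. Strong regions were missing from 11 of the 22 windows of X and supported ones from 8. Strong regions were missing from 5 of 23 windows on 2L, 3 of 21 on 2R, 6 of 24 on 3L and 4 of 27 on 3R. Supported ones were missing from 3 windows on 2L, 3 on 2R, 5 on 3L and 1 on 3R. Fewer regions leave more windows empty by number alone.

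**Figure D5:**
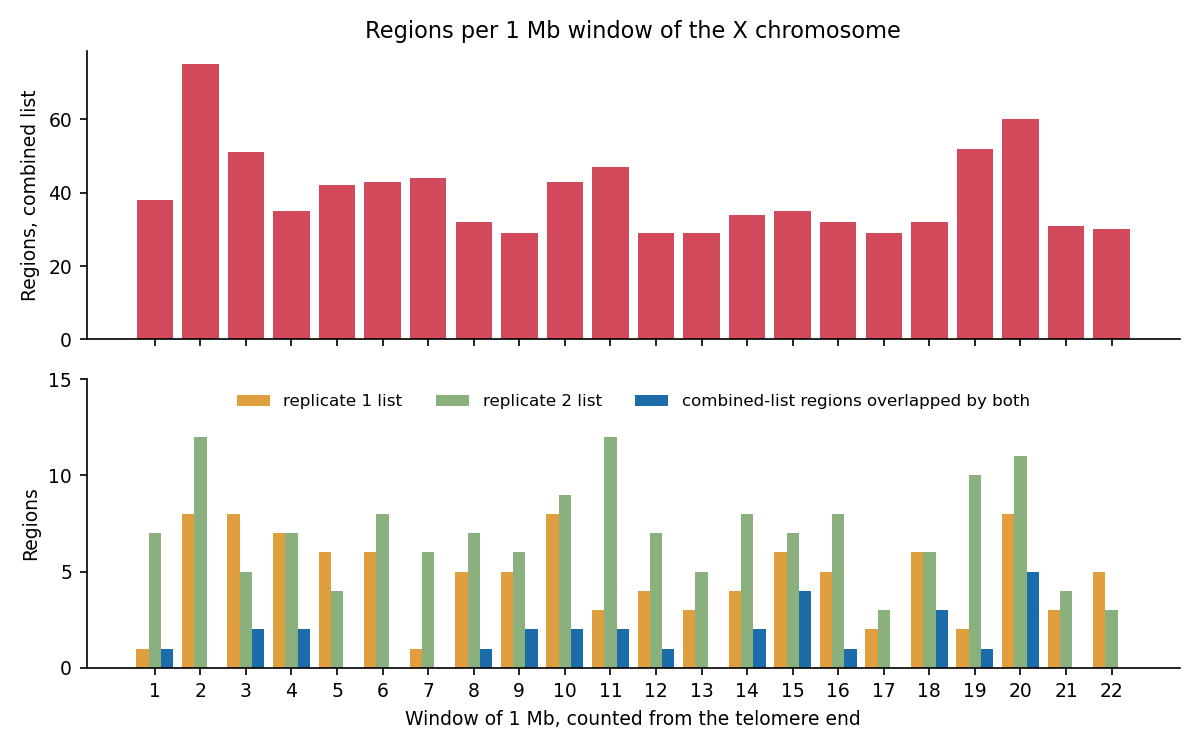
Regions per full window of 1 Mb along X, counted from the telomere end, in the combined list (top) and in the replicate lists and the combined-list regions overlapped by both (bottom). The top panel peaks at 75 regions in the second window and at 60 in the window numbered 20; the bottom bars peak at 8 for replicate 1, 12 for replicate 2 and 5 for regions held by both.

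Spacing on X was close to that of the autosomes. The median stretch without a region between neighbours was 15.2 kb on X, against 12.8 to 16.8 kb on the 4 autosomal arms, and 23.8% of stretches on X and 23.8% on the autosomal arms were shorter than 5 kb. Between nearest centres the median distance was 8.62 kb on X and 7.16 to 10.1 kb on the 4 arms.

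Of stretches of at least 100 kb X had 23, with 13.9% of its length, against 8.47% on 3R and 17.9% on 3L as the lowest and highest of the autosomal arms. The longest ran from 8631229 to 8867091, or 236 kb, the only one on X above 200 kb, and neither replicate list had a region there. The next were 7203653 to 7375681 with 172 kb, 15846297 to 16015741 with 169 kb, 20890983 to 21056073 with 165 kb and 21634007 to 21791487 with 157 kb. Replicate 2 had 1 region in the first of these 4, and replicate 1 had 1 in the third. The longest stretches of the autosomal arms measured 167 kb on 3R, 276 kb on 2R, 313 kb on 3L and 326 kb on 2L, so X lay between 3R and 2R. The ends of X were not empty in the combined list, since the outermost regions lay 56.9 kb from the telomere end of the sequence and within 17.5 kb of its other end. Neither replicate held these outermost regions, X 56868 to 58030 and X 22404296 to 22405322. Replicate 1 regions had centres from 1.89% to 97.4% of the length of X, and replicate 2 regions from 0.651% to 99.1%.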

How the data were processed

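ZW5 ChIP-seq regions came from lists the authors deposited for each of 2 ChIP libraries, each called against the input library of the same number per the labels, and for both together. Bowtie 0.12.7 is named in the submitters' processing notes, and per the file headers the coordinates belong to FlyBase release 5. Not given in the sources used here are the caller, its threshold and how the replicate data were joined. The only value is a score the authors deposited for each region, used within a list to describe, rank and filter. The combined list was treated as pooled.

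Every deposited region on X, 2L, 2R, 3L and 3R was used. Densities used arm lengths from the file headers; ratios carry exact conditional binomial intervals and 2-sided p-values, Benjamini-Hochberg adjusted over 7, and alternatives unadjusted ones. Shares carry Wilson and differences Newcombe intervals (95%). A share of 0 carries its upper Wilson limit. For strong supported regions of at least 5 kb, and for those within 2 Mb of an end, it carries the limit of 3 counts instead. Windows of 1 Mb began at position 1 and regions were placed by their centres. Telomere and centromere ends follow the standard orientation of the arms.

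The regions and tests were chosen with earlier results of these data known. Named were the strong X regions held by both replicates, the 5 highest of the other strong ones, strong replicate regions the other replicate lacked, the 5 longest empty stretches, the fullest and emptiest windows and the 3 widest regions. Others named were chosen after their values were seen: those just under a score of 1, the tied scores and the group near 19.4 Mb. Gene names and sequences were not used, since the reference table follows release 6. The functions were tested on simulated data. Calculations ran in Python 3.11.15 with scipy 1.17.1, numpy 2.4.6 and pandas 2.3.3, and plots in matplotlib 3.10.9.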

Additional observations from a re-analysis of the deposited data

How the results depend on the processing

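For 8 results 48 alternatives were computed. In 34 the call held or the value moved by no more than the standard deviation of the 2 replicate lists' values. That limit is wide for the longest empty stretch, where 579 kb in replicate 2 against 236 kb counts among the 34. Strong regions stayed sparser on X in all 12 alternatives, with ratios of 0.312 to 0.582 in the 10 planned ones. The 2 that were not planned gave 0.287 to 0.293. The ratio for all regions turned to 1.01 with 3R out of the background and was 0.764 to 0.875 in single replicate lists, past the threshold in replicate 2. Support by single replicates gave ratios of 0.745 to 0.803, not past the threshold for replicate 1. The difference in support by either replicate was -4.50 points among regions of at least 1301 bp and -1.30 points below a score of 1, and -4.41 to -1.95 points with single replicates; of these 4 intervals only that of replicate 2 alone excluded 0. The difference in median score was -1.56 among regions held by both replicates, of which the strong were 34.5% on X and 59.8% on the autosomal arms, and 0.0607 to 0.0953 in single replicate lists. The cause of these changes was not tested. Single replicate lists gave differences in median width of -156 to -7 bp, longest empty stretches of 579 to 1364 kb, and variance to mean ratios of 0.966 to 1.06, which were 2.73 in windows of 0.5 Mb and 4.34 in windows of 2 Mb; these lists hold fewer regions by construction. No paired analysis was possible because regions were listed for the ChIP libraries alone. With read depth unknown, the precision of a single score cannot be given.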
